A study of Danio rerio with 14 samples.

Results

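High fat food and overfeeding, the feeding methods that the study used to make zebrafish obese, were compared directly in the liver. The comparison held 6 of the 14 arrays, 1 array of high fat food fish (FAT) and 1 of overfed fish (DIO) in each of WT, HBx(p53-) and Src(p53-), chosen by their labels and not by any measured value. FAT fish received a high fat food, 0.22 g at each of 3 feedings a day, beside 0.5 mL of Artemia (brine shrimp) at 1 daily feeding. DIO fish received no high fat food but 2 mL of Artemia at each of 3 feedings. Fish on the normal diet (NOR) had Artemia as the FAT fish did, and their 4 arrays in these genotypes entered the estimate of spread behind the tests over 3 genotypes. Every group was also given powdered feed. All fish were 3 months old at the start and were fed for 8 weeks. WT fish were of the AB strain. HBx(p53-) fish carried the X gene of hepatitis B virus, and Src(p53-) fish the tyrosine kinase Src. Both transgenes were driven by the fabp10a promoter, which is active in hepatocytes, and both lines carried a p53 mutation on each diet, so WT differed from them by transgene and p53 together. HBx,Src(p53-) fish had no FAT array and were left out. Each array was taken to hold the liver of 1 fish, so that a diet within a genotype was measured in 1 fish, and the sex of the fish was not given in the sources used here.

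The liver of a fish on a fatty food takes in ready fatty acids, whereas brine shrimp in excess bring protein, fat and some carbohydrate together. Hepatocytes control their sterol and fatty acid synthesis genes through SREBP transcription factors. They also adjust the protein folding machinery of the endoplasmic reticulum (ER), where secreted plasma proteins and lipoproteins are made, and the making of ribosomes in the nucleolus, which sets the capacity for protein synthesis.

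The values were log2 intensities, so that a difference of 1 is a 2-fold difference, and the median value of an array lay between 2.1 and 2.23. FAT was compared with DIO within each genotype, and the mean of the 3 differences was tested with limma over 21125 genes. The SE given with a mean difference is that of this fit over 10 arrays, NOR included, and not the spread of the 3 differences alone. No gene passed an adjusted p of 0.05 (0.0% of the genes tested), and the lowest adjusted p was 0.143. At an unadjusted p under 0.05 there were 657 genes higher (3.11%) and 421 lower (1.99%) in FAT. In all 3 genotypes 3128 genes were higher (14.8%) and 2665 lower (12.6%) in FAT, and the difference was over 2-fold in each of them for 29 genes higher (0.137%) and 21 lower (0.0994%). The FAT and DIO arrays did not overlap for 1339 genes higher (6.34%) and 1154 lower (5.46%). Single genes below are therefore given as values and not as calls. The FAT and DIO arrays of a genotype were over 2-fold apart for 2700 genes in WT, 1957 in HBx(p53-) and 1780 in Src(p53-). The pairs of arrays that shared genotype and diet were over 2-fold apart for 3440 genes in WT_NOR, 2999 in HBx,Src(p53-)_NOR and 1575 in HBx,Src(p53-)_DIO. The range over fish of the same group thus took in all 3 differences between the obesity diets. Among the 10 arrays of the fit only the WT_NOR arrays shared genotype and diet. The spread behind the p-values thus came mainly from how the differences between diets varied from genotype to genotype. Since a diet within a genotype otherwise had 1 array, that variation cannot be split into differences between fish and differences between genotypes.

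The gene with the lowest p was etnppl, which encodes the lyase that breaks down phosphoethanolamine, a building block of membrane phospholipids. Its level was 5.98, 5.95 and 5.84 on the FAT arrays of WT, HBx(p53-) and Src(p53-), and 7.58, 7.95 and 7.93 on their DIO arrays. The NOR arrays lay between 7.58 and 7.75, so that the FAT arrays stood alone and DIO was at the level of the normal diet. The mean difference of FAT from DIO was -1.89 ± 0.19 (SE of the fit, adjusted p = 0.143). The next gene of lipid handling was hsd17b12a, a reductase of the cycle that lengthens fatty acids. It measured 4.39, 5.08 and 4.36 in FAT and 6.62, 7.46 and 6.73 in DIO, and the 3 differences were nearly the same, at -2.24, -2.38 and -2.37, with a mean of -2.33 and an SE of 0.49 in the fit that holds NOR (adjusted p = 0.955). Here NOR was spread from 3.76 in Src(p53-) to 6.02 and 6.03 in the WT fish, so FAT was not set apart from the normal diet. The groups also did not overlap for trib1, a pseudokinase that restrains lipid synthesis in the liver of mice, with 3.23, 3.04 and 3.79 in FAT and 5.46, 4.70 and 4.46 in DIO. The inhibitor of NF-kB nfkbiab was at 6.54, 7.24 and 7.08 in FAT and at 7.94, 8.25 and 7.76 in DIO. The choline transporter-like gene slc44a5b was at 7.81, 7.34 and 7.40 in FAT and at 8.59, 8.98 and 8.47 in DIO, and both of these genes were lower in FAT in every pair. The remaining genes of the 10 named as lower were afp4, zcchc4 and 3 that carry only clone-based names, with mean differences from -1.02 to -1.34.

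Higher in FAT were genes of several kinds, of which the one with the lowest p was lmf2a, an ER membrane protein related to the factor that matures lipases. It measured 4.32, 4.82 and 5.43 in FAT against 2.19, 3.29 and 3.28 in DIO, and NOR was at 3.61 to 4.35, above every DIO array. The mean difference was 1.94 ± 0.25 (SE of the fit, adjusted p = 0.471). For pabpc1b, which binds the poly(A) tail of mRNA, the levels were 7.63, 7.57 and 8.74 in FAT and 5.12, 5.96 and 5.62 in DIO (mean difference 2.41 ± 0.36, adjusted p = 0.782). The fibronectin gene fn1a, an extracellular matrix protein that hepatocytes also secrete, was at 3.29, 3.32 and 3.73 in FAT and at 2.12, 2.16 and 2.12 in DIO, with NOR from 2.17 to 2.44, so that every FAT array was above every DIO and NOR array. The dehydratase hacd3, which acts 1 step after hsd17b12a in fatty acid lengthening, was at 6.29, 5.66 and 5.87 in FAT and at 3.81, 4.85 and 2.74 in DIO. These 2 genes therefore differed between the diets in opposite directions. The related and brighter gene hsd17b12b went with hacd3. It was at 9.11, 8.49 and 8.01 in FAT and at 7.85, 8.42 and 7.65 in DIO, higher in each pair. Among the 29 genes over 2-fold higher in all 3 pairs, the largest mean differences were those of gys1, scd and cyp51, the last 2 described with their pathways below. Gys1, a glycogen synthase, was at 8.41, 7.90 and 7.46 in FAT and at 4.72, 3.39 and 5.01 in DIO (3.55 ± 0.79, adjusted p = 0.955). Its NOR arrays covered nearly the whole gap, from 3.68 to 7.07. The remaining genes of the 10 named as higher were cyb5r1, cyp2x10.2, myo18aa, tmem86b, scamp2l and LOC100537317, with mean differences from 1.16 to 2.02.

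**Figure D1:**
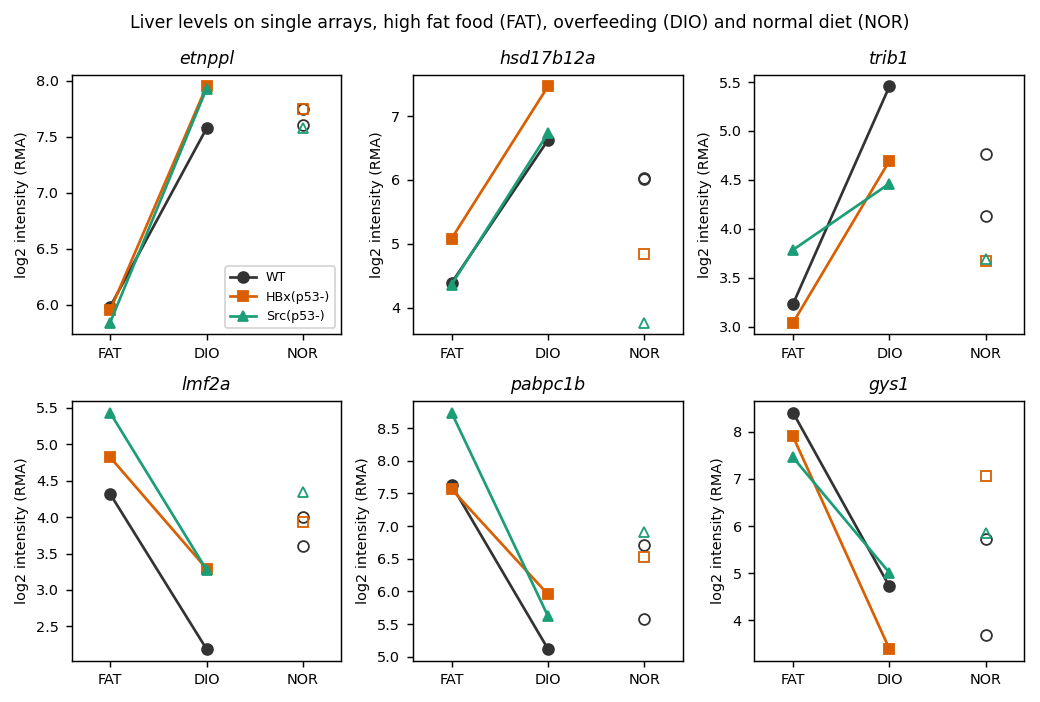
Log2 intensity of 6 genes on single arrays of WT, HBx(p53-) and Src(p53-) livers under high fat food (FAT), overfeeding (DIO) and normal diet (NOR, open symbols), with a line joining FAT and DIO of a genotype. For each of the 6 genes no FAT array overlaps a DIO array. The genes were chosen on these same differences, so this lack of overlap is no separate evidence. Over all genes it held for 6.34% with FAT higher and 5.46% with FAT lower. For etnppl the NOR arrays, at 7.58 to 7.75, lie with DIO.

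**Figure D2:**
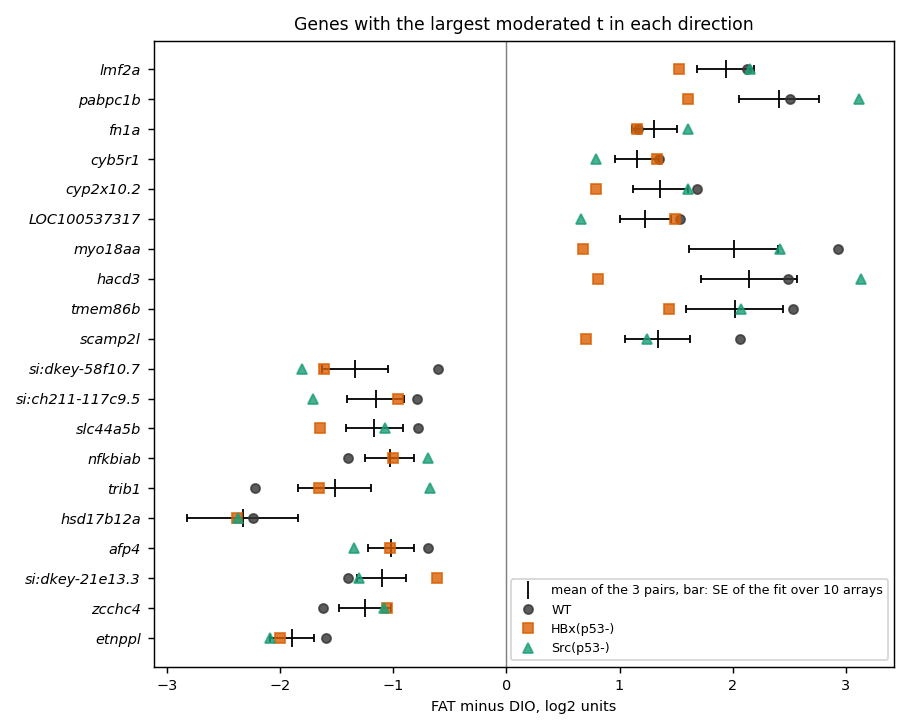
FAT minus DIO difference (log2 units) of the 10 genes with the largest moderated t in each direction, among genes with 1 sign in all 3 genotypes and a mean difference of at least 1, with symbols for WT, HBx(p53-) and Src(p53-), the mean of the 3 pairs and, as bars, its SE in the fit over 10 arrays. The genes were chosen on these differences, which run from -2.33 for hsd17b12a to 2.41 for pabpc1b in the mean.

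Ribosome biogenesis was the list that lay lowest in FAT. Of its 76 measured members, which build ribosomal subunits in the nucleolus, 71 were lower and 5 higher in FAT in the mean, and 55 (72.4%) were lower in all 3 pairs, against 12.6% of all genes. None passed the test after adjustment, and 22 members had an unadjusted p under 0.05, all of them lower (1.99% of all genes). For 44 members no FAT array reached the lowest DIO array, as for 5.46% of all genes, and for none was the order the other way (6.34% of all genes). The median difference was -0.76, against 0.02 over all genes, and by genotype it was -0.97 in WT, -0.84 in HBx(p53-) and -0.30 in Src(p53-). The mean level of the list was 5.32, 5.34 and 5.88 on the FAT arrays of WT, HBx(p53-) and Src(p53-), and 6.32, 6.14 and 6.16 on the DIO arrays. The normal diet arrays were at 6.07 and 6.49 in WT and at 6.25 in HBx(p53-), near DIO, but at 5.47 in Src(p53-), below the FAT array of that line. The 2 HBx,Src(p53-)_NOR arrays, alike in genotype and diet, were at 6.59 and 5.16. They were thus farther apart than FAT and DIO in any of the 3 genotypes. In bulk liver, fewer cells of a type and less RNA per cell cannot be told apart.

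Among single members, utp3 and imp4, of the complex that processes the small subunit's RNA, had mean differences of -1.45 ± 0.63 and -1.40 ± 0.63 (SE of the fit). In WT the imp4 level was 4.32 in FAT and 6.09 in DIO, in HBx(p53-) 3.86 and 5.99, and in Src(p53-) 5.55 and 5.83, so that the gap was small in Src(p53-). For nip7, a factor of the large subunit, at 4.13, 4.60 and 6.0 in FAT and 6.56, 5.97 and 6.35 in DIO, the gap was likewise smallest in Src(p53-), and the Src(p53-)_FAT array was just above HBx(p53-)_DIO. The member with the lowest p was ebna1bp2, a nucleolar protein named here after its values were seen, at 5.90, 5.78 and 5.65 in FAT and 6.58, 7.11 and 6.75 in DIO (-1.04 ± 0.23). The largest subunit of RNA polymerase I, polr1a, which transcribes the ribosomal RNA genes and was also named after its values were seen, was at 5.82, 6.11 and 6.23 in FAT and at 7.01, 7.12 and 6.73 in DIO. In both of these genes every FAT array lay below every DIO array.

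Genes of protein processing in the ER lay on the other side. Of 54 measured members, 47 were higher in FAT and 7 lower, and 26 (48.1%) were higher in all 3 pairs while none was lower in all 3, against 14.8% and 12.6% of all genes. None passed the test after adjustment, and all 11 members with an unadjusted p under 0.05 were higher (3.11% of all genes). The median difference was 0.54 over the list, and 0.80, 0.28 and 0.37 in WT, HBx(p53-) and Src(p53-). The disulfide isomerase pdia4 had the largest mean difference, with 9.73, 7.81 and 7.38 in FAT and 4.01, 6.83 and 6.04 in DIO. The WT_DIO array was the lowest of the 6, and the difference was 5.72 in WT, 0.99 in HBx(p53-) and 1.34 in Src(p53-). The chaperone hyou1 was at 9.94, 8.15 and 7.62 in FAT and at 6.78, 7.56 and 6.07 in DIO (1.77 ± 0.61). Syvn1, the ubiquitin ligase that marks misfolded ER proteins for breakdown, named after its values were seen, differed most evenly, with 7.03, 7.12 and 6.86 in FAT and 5.94, 5.76 and 5.76 in DIO (1.19 ± 0.29, SE of the fit, adjusted p = 0.955). Regulators of the response did not all lie with them. Xbp1, the spliced transcription factor of that response, chosen after its values were seen, was at 6.60, 6.47 and 7.05 in FAT and at 8.17, 7.41 and 5.78 in DIO, lower in FAT in 2 of the 3 pairs. The list means were 8.23, 7.51 and 7.47 in FAT, 7.23, 7.22 and 7.07 in DIO, and in NOR 7.69 and 7.99 in WT, 7.00 in HBx(p53-) and 7.97 in Src(p53-). NOR thus lay between FAT and DIO in WT, below both in HBx(p53-) and above both in Src(p53-). The HBx,Src(p53-)_DIO arrays, alike in genotype and diet, were at 7.46 and 7.00. They were farther apart than FAT and DIO in HBx(p53-) or Src(p53-), but not in WT. The HBx,Src(p53-)_NOR arrays, at 8.34 and 8.15, were closer together than FAT and DIO in any of the 3 genotypes. Without the WT arrays the list median was 0.34.

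**Figure D3:**
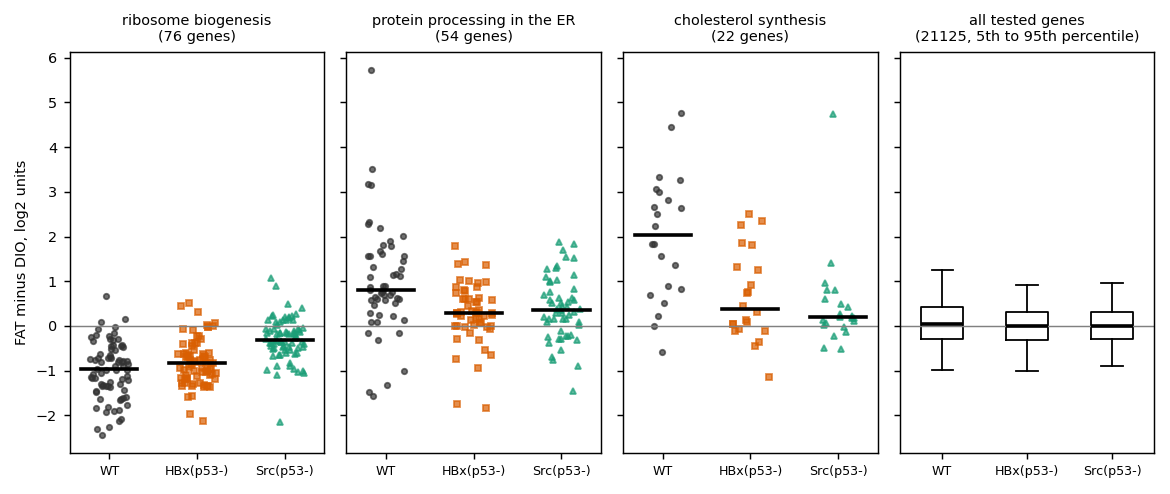
FAT minus DIO difference (log2 units) of each member of 3 gene lists within WT, HBx(p53-) and Src(p53-), 1 point a gene with the median as a bar, beside boxes for all 21125 tested genes whose whiskers end at the 5th and 95th percentile. The medians of ribosome biogenesis are below 0 in each genotype, at -0.97, -0.84 and -0.30, and those of ER protein processing and cholesterol synthesis above 0.

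Cholesterol synthesis genes were higher in FAT, most of all in WT. Of 22 measured members 21 were higher in the mean, 12 (54.5%) were higher in all 3 pairs and 1 was lower in all 3, against 14.8% and 12.6% of all genes. The list median was 0.94, but 2.04 in WT, 0.38 in HBx(p53-) and 0.19 in Src(p53-), and it was 0.44 without the WT arrays and 0.33 without the WT_FAT array alone. It was 1.55 without the Src(p53-)_FAT array. None passed the test after adjustment, and 6 members had an unadjusted p under 0.05, all higher (3.11% of all genes). Cyp51, the sterol demethylase, was at 10.66, 10.03 and 7.19 in FAT and at 5.90, 7.52 and 5.77 in DIO (2.90 ± 0.90). Hmgcra, the reductase that sets the rate of the pathway, ran in another order of genotypes, with 9.78, 10.28 and 10.39 in FAT and 9.09, 7.92 and 5.64 in DIO (2.60 ± 0.72). Its FAT levels were nearly equal, and the difference was 0.69 in WT, 2.36 in HBx(p53-) and 4.75 in Src(p53-), where the DIO level was lowest. The epoxidase sqlea was at 7.11, 4.86 and 2.60 in FAT and at 2.65, 2.61 and 2.38 in DIO, and all 3 DIO arrays were near the array median. The later enzymes sc5d and msmo1 were at 9.38, 8.14 and 7.16 and at 10.64, 9.38 and 8.22 in FAT, against 6.06, 6.27 and 6.20 and 7.57, 7.57 and 7.63 in DIO, so that the DIO arrays were closely alike and the FAT arrays spread. Srebf2, the transcription factor of the pathway, was at 8.27, 8.55 and 8.14 in FAT and at 7.85, 7.48 and 7.04 in DIO (0.86 ± 0.29). Of the 17 members of sterol uptake and its control 3 were higher (17.6%) and 1 lower (5.88%) in all 3 pairs, against 14.8% and 12.6% of all genes, with a median of -0.12.

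The normal diet fish did not give a steady baseline for these genes. Cyp51 was at 7.22 and 7.63 in the WT_NOR fish, 8.68 in HBx(p53-)_NOR and 9.62 in Src(p53-)_NOR, and sqlea at 3.50 and 2.80 in WT_NOR, 2.73 in HBx(p53-)_NOR and 6.21 in Src(p53-)_NOR. The Src(p53-)_NOR fish was thus above the Src(p53-)_FAT fish in both genes. Over the cholesterol synthesis list the mean level was 6.63, 5.51 and 4.88 in FAT and 4.63, 4.84 and 4.42 in DIO. Src(p53-)_NOR, at 6.33, was above both the FAT and the DIO array of that line, and HBx(p53-)_NOR, at 4.95, lay between its own. The WT_NOR arrays, alike in genotype and diet, were at 4.62 and 5.47, and the HBx,Src(p53-)_NOR arrays at 8.32 and 7.49. Each of these pairs was farther apart than FAT and DIO in HBx(p53-) or Src(p53-), but not in WT.

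Of the fatty acid synthesis genes, 12 of 20 were higher in FAT in the mean, against 52.4% of all genes, with a median of 0.24. None had an unadjusted p under 0.05, against 3.11% of all genes higher and 1.99% lower. Elovl7a, srebf1, acsl4a, acaca, thrsp, scd, mlxipl and aclya were higher in all 3 pairs, against 14.8% of all genes. Slc25a1b was lower in all 3, against 12.6%. The desaturase scd, which makes monounsaturated fatty acids, was at 12.50, 10.69 and 10.65 in FAT and at 11.09, 7.85 and 6.0 in DIO. Each fish on high fat food was above its overfed counterpart, but the NOR fish ranged from 4.33 to 11.10 and the mean difference of 2.97 had an SE of 1.90 (adjusted p = 0.959). Fasn, the fatty acid synthase, was at 10.08, 7.48 and 9.32 in FAT and at 8.65, 9.04 and 6.64 in DIO, and so was lower in FAT in HBx(p53-) alone. Acaca, the carboxylase before it, named after its values were seen, was at 11.29, 9.67 and 10.07 in FAT and at 10.01, 9.10 and 8.77 in DIO, and was higher in each pair. The carbohydrate response factor mlxipl (also called chrebp) was at 8.15, 7.32 and 6.34 in FAT and at 6.55, 6.13 and 5.82 in DIO. A list of 16 measured genes was taken from the study, some assayed singly and others, such as hmgcra and sqlea, picked out in its analysis of these arrays, and is for that reason no independent evidence of a direction. In the mean 15 of the 16 were higher in FAT and 11 (68.8%) were higher in all 3 pairs, against 14.8% of all genes, with a median of 0.53. Of this list, agpat4 and hmgcra had an unadjusted p under 0.05, both higher (3.11% of all genes). The list does not hold every gene that the study put forward. Acat2, which the study also measured by qPCR, was not in it and was lower in FAT in HBx(p53-). Acat2 was at 8.54, 5.34 and 5.51 in FAT and at 5.54, 6.48 and 5.38 in DIO. Agpat4, an acyltransferase of phospholipid and triglyceride synthesis, was at 8.27, 7.11 and 8.00 in FAT and at 6.94, 7.06 and 6.21 in DIO, nearly without a gap in HBx(p53-). Pparg, the fat storage receptor, was at 9.30, 8.61 and 8.81 in FAT and at 8.38, 8.42 and 8.45 in DIO, and srebf1, of the SREBP factors, at 9.37, 8.95 and 8.73 in FAT and at 8.90, 8.58 and 8.45 in DIO.

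The lengthening and desaturation of polyunsaturated fatty acids went the same way for most of its 17 genes, with 13 higher in FAT and 7 (41.2%) in all 3 pairs, against 14.8% of all genes. Fads2, the desaturase of this route in zebrafish, also named after its values were seen, was among the brightest genes measured, at 12.99, 12.90 and 12.49 in FAT and 12.17, 12.15 and 12.46 in DIO. Elovl5 was at 10.05, 9.42 and 9.26 in FAT and at 8.45, 9.23 and 8.32 in DIO. Both were higher in every pair, but for fads2 the gap in Src(p53-) was 0.03. Hsd17b12a and hacd3, described above, were the members farthest from 0.

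Fatty acid oxidation had no common direction, with 14 of 31 genes higher and 17 lower in FAT, and 1 higher (3.23%) and 6 lower (19.4%) in all 3 pairs, against 14.8% and 12.6% of all genes. The list median was 0.39 in WT, -0.08 in HBx(p53-) and -0.45 in Src(p53-). Both members with an unadjusted p under 0.05 were lower in FAT, against 1.99% of all genes lower and 3.11% higher. They were carnitine palmitoyltransferases, which pass fatty acids into mitochondria. Cpt1ab was at 5.97, 7.60 and 6.67 in FAT and at 7.36, 8.52 and 8.84 in DIO. Cpt1b was at 2.90, 8.37 and 6.96 in FAT and at 8.43, 9.72 and 9.78 in DIO, lower in each pair and far lowest in the WT_FAT fish, while the NOR fish ranged from 5.86 to 10.22. Another form, cpt1aa, was at 7.72, 8.31 and 9.0 in FAT and at 9.15, 8.93 and 8.47 in DIO, with no common direction. Among triglyceride genes 15 of 25 were higher, and plin2, which coats lipid droplets, was at 4.01, 5.66 and 3.88 in FAT and at 7.00, 5.42 and 5.80 in DIO, lower in WT and Src(p53-) and slightly higher in HBx(p53-).

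**Figure D4:**
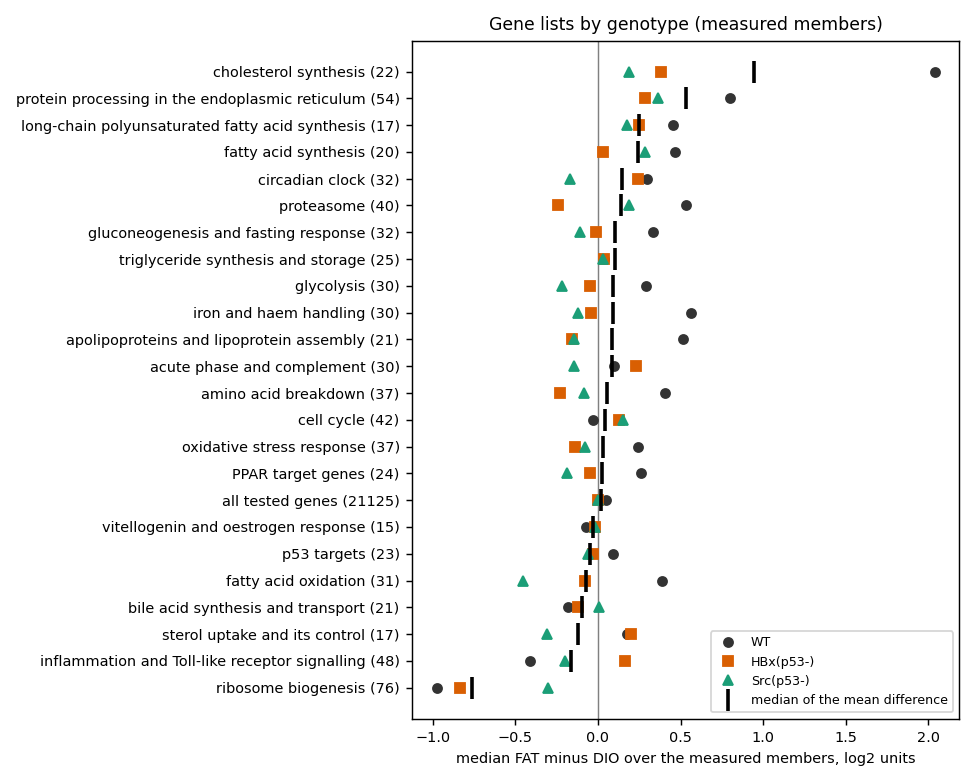
Median FAT minus DIO difference (log2 units) of each pathway list within WT, HBx(p53-) and Src(p53-), with the median of the mean difference as a bar and the number of measured members in brackets. Ribosome biogenesis (-0.76) and cholesterol synthesis (0.94) lie farthest from the median of all tested genes (0.02), and most other lists have genotypes on both sides of 0.

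Genes of inflammation and Toll-like receptor signalling were lower in FAT for 34 of 48 members, and 9 were lower and none higher in all 3 pairs, against 12.6% and 14.8% of all genes. The direction was not shared by the genotypes, with medians of -0.41 in WT, 0.16 in HBx(p53-) and -0.20 in Src(p53-). Fosab, an immediate early gene, was at 4.78, 6.34 and 6.54 in FAT and at 7.95, 7.13 and 7.83 in DIO. Socs3b, which damps cytokine signalling and was named after its values were seen, was at 6.19, 7.17 and 5.98 in FAT and at 7.70, 7.75 and 7.23 in DIO, above which no FAT array lay. The interferon response factor irf1b was at 3.89, 7.74 and 3.83 in FAT and at 6.79, 6.49 and 7.79 in DIO, lower in WT and Src(p53-) and higher in HBx(p53-). Leukocyte markers had the same order, with means of 3.03, 3.73 and 3.65 in FAT and 3.61, 3.49 and 4.05 in DIO, lower in WT and Src(p53-) and higher in HBx(p53-). Their part in these differences was not tested.

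Markers of other cell types were read on the same arrays. The 15 hepatocyte markers averaged 11.85, 11.81 and 11.56 in FAT and 11.05, 11.82 and 11.87 in DIO, so that they were bright on all 6 arrays. The hepatocyte gene whose promoter drives the transgenes, fabp10a, was at 13.06, 12.98 and 13.13 in FAT and at 13.09, 13.22 and 13.25 in DIO. The marker mean was lowest on WT_DIO, where serpina1, the gene of antitrypsin, was at 5.41 against 10.24 or more on the other arrays of these genotypes. All 16 measured exocrine pancreas markers had a mean difference above 0 and a median of 0.81, but 3 (18.8%) were higher in all 3 pairs, and the difference was largest in HBx(p53-) (a median of 1.94 there, 0.46 in WT and -0.17 in Src(p53-)), and without the HBx(p53-) arrays the median was 0.12. Leaving out single arrays gave 0.20 without HBx(p53-)_DIO, 0.43 without HBx(p53-)_FAT and 1.39 without Src(p53-)_DIO. The list mean was 4.44, 6.89 and 4.55 in FAT and 3.82, 5.04 and 4.76 in DIO, and the trypsin gene prss59.1 was at 11.45 in HBx(p53-)_FAT and at 9.16 in HBx(p53-)_DIO. The defining factor ptf1a was near the floor on all 6 arrays, at 1.21 to 1.72. Where in the dissected tissue these transcripts came from was not tested. With the mean of these markers as a covariate the median was -0.71 for ribosome biogenesis, 0.81 for ER protein processing and 1.50 for cholesterol synthesis, beside -0.76, 0.54 and 0.94 without it.

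Stellate and stromal cell markers were higher in FAT for 11 of 12 genes in the mean of the 3 pairs, against 52.4% of all genes. The list mean was 3.30, 3.25 and 3.23 in FAT and 2.74, 2.99 and 2.91 in DIO. In NOR it was 3.09 and 2.80 in WT, 2.975 in HBx(p53-) and 2.88 in Src(p53-). The WT_NOR arrays, alike in genotype and diet, were farther apart than FAT and DIO in HBx(p53-), but not in WT or Src(p53-). Col1a1a, the collagen gene, was at 4.95, 3.39 and 3.63 in FAT and at 2.56, 2.57 and 1.83 in DIO (1.66 ± 0.54). Pdgfrb, a receptor of stellate cells and pericytes, was at 4.29, 4.44 and 5.01 in FAT and at 3.96, 3.15 and 4.20 in DIO, and desma, desmin of the same cells, at 2.5, 2.16 and 2.51 in FAT and at 1.52, 1.77 and 1.71 in DIO. For col1a1a, pdgfrb and desma, the members with the lowest p, every FAT array lay above every DIO array. The same held for lum and col1a1b and for no other member, against 6.34% of all genes. Since col1a1a, pdgfrb and desma were picked by p on these arrays, their lack of overlap is no separate evidence. The collagen gene col5a1 was lower in FAT in HBx(p53-), at 4.57 against 4.93, and in Src(p53-), at 4.09 against 5.20. Only 2 of the 12 genes had a mean of at least 4, and the median of these 2 was -0.17. The list median was 0.27, and 0.17 without the WT_DIO array, and the part of stromal cells in the other lists' differences was not tested. Intestine markers had a median of -0.09, and fabp2, the fatty acid binding protein of enterocytes, was at 2.86, 2.91 and 2.33 in FAT and at 3.33, 5.67 and 4.73 in DIO, with NOR at 4.80 to 6.27, above every FAT array. Of the 11 measured intestine markers 8 were lower in FAT in the mean. The intestinal transporter slc15a1b was near the floor on all 6 arrays, at 1.18 to 1.79. Of 8 adipose tissue markers 4 were higher and 4 lower in FAT in the mean. The brightest, the lipoprotein lipase gene lpla, was at 11.27, 11.59 and 12.13 in FAT and at 11.94, 11.58 and 12.21 in DIO. The 1 marker higher in all 3 pairs was plin1, which coats the lipid droplet of fat cells, at 6.07, 3.12 and 5.08 in FAT and at 2.80, 2.21 and 2.29 in DIO, while the adipokine gene adipoqb lay at 1.36 to 1.89 on all 6 arrays. Red blood cell markers were lower in FAT in HBx(p53-), at 4.01 against 5.0 in DIO. They were slightly higher in FAT in WT, at 4.33 against 4.17, and in Src(p53-), at 4.24 against 4.16. Vitellogenin and oestrogen response genes, which tell laying females from males, had a median of -0.03. The list means were 7.67, 7.91 and 7.96 in FAT and 7.82, 7.88 and 7.94 in DIO. These means join very bright genes with genes near the floor. Vtg2 was at 13.97 to 14.04 on all 6 arrays, and vtg3, vtg4, vtg6 and vtg7 were at 13.16 to 13.79. Vtg5 was dimmer, at 7.9 to 8.85, and zp2.1 lay at 0.87 to 1.83. The vitellogenins were thus bright under both diets, and the sex of the fish was not tested.

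**Figure D5:**
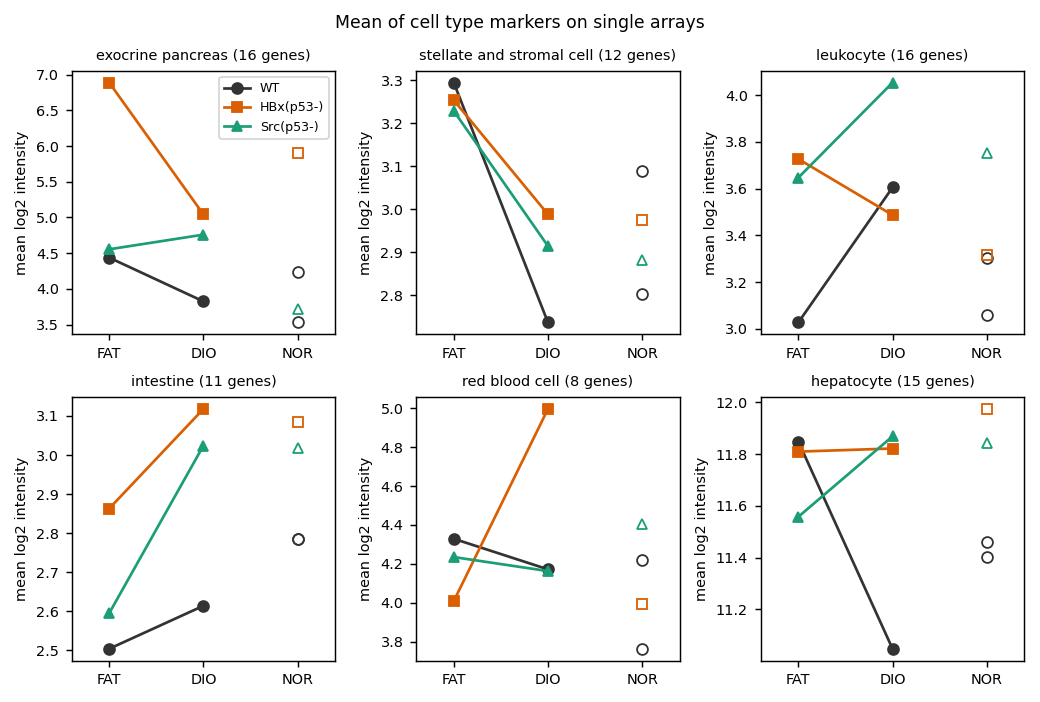
Mean log2 intensity of 6 lists of cell type markers on single arrays of WT, HBx(p53-) and Src(p53-) livers under FAT, DIO and NOR (open symbols), with a line joining FAT and DIO of a genotype. Stromal markers are higher in FAT in each genotype (3.23 to 3.30, against 2.74 to 2.99 in DIO). The WT_NOR arrays, at 3.09 and 2.80, are farther apart in these markers than FAT and DIO in HBx(p53-). Exocrine pancreas markers are highest on HBx(p53-)_FAT (6.89) and hepatocyte markers lowest on WT_DIO (11.05).

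Within a single genotype the FAT and DIO fish differed by more than 2-fold for 1691 genes higher (8.0%) and 1009 lower (4.78%) in WT, 845 higher (4.0%) and 1112 lower (5.26%) in HBx(p53-), and 967 higher (4.58%) and 813 lower (3.85%) in Src(p53-). The differences of 2 genotypes were weakly related over genes, with Pearson's r of 0.17 between WT and HBx(p53-), 0.04 between WT and Src(p53-) and -0.003 between HBx(p53-) and Src(p53-) (21125 genes, different arrays). To test 1 fish against 1, the spread was taken from the 3 groups of the series with 2 arrays. The 1 gene called was zgc:171534 in WT, at 9.22 in FAT and 1.84 in DIO (7.37 ± 0.34, adjusted p = 0.0176). In HBx(p53-) it was at 2.4 in FAT and 1.83 in DIO, and in Src(p53-) at 9.21 and 8.70, so the gene was either near the floor or bright in each fish, and Src(p53-)_NOR was bright (8.51) too while the WT_NOR fish were not (2.04 and 2.1). It was lost when any of the 6 arrays of those 3 groups was left out, with an adjusted p of 0.12 to 0.278. In HBx(p53-) and Src(p53-) no gene was called.

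Among the lowest genes of the WT pair, cpt1b (-5.52) was joined by slc13a5a, a citrate transporter, at 3.27 in FAT and 8.15 in DIO, by hmox1a, a heme oxygenase, at 3.17 and 8.03, and by dio3b, a thyroid hormone deiodinase, at 2.62 and 8.13. Slc13a5a was also lower in FAT in HBx(p53-), at 7.02 against 8.18, and in Src(p53-), at 4.84 against 7.94. The lowest gene of the pair, LOC100537842, was at 2.67 in FAT and 10.35 in DIO in WT, at 7.92 and 9.42 in HBx(p53-) and at 7.66 and 10.04 in Src(p53-). At the high end of the WT pair stood pdia4, described above, and aldoab, an aldolase, at 8.13 in FAT and 2.23 in DIO, which was at 2.28 to 2.88 in the other 4 FAT and DIO arrays but at 8.38 in HBx(p53-)_NOR.

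In HBx(p53-) the lowest gene was si, the sucrase-isomaltase of the intestinal brush border, at 3.13 in FAT and 10.37 in DIO, and the acute phase gene crp was at 4.11 and 9.67. In Src(p53-) si was the highest gene instead, at 8.14 in FAT and 2.56 in DIO. The gap between the diet differences of Src(p53-) and HBx(p53-) was 12.82 ± 0.89 for si, with an adjusted p of 0.194, so it was not called. Among the intestine markers fabp2 was lower in FAT in both genotypes, and vil1, the villin gene of the brush border, was at 3.37 in FAT and 5.02 in DIO in HBx(p53-) and at 3.30 and 3.41 in Src(p53-). The part of intestinal tissue in the values of si was not tested. At the high end in HBx(p53-) were gys1 and klf11b, a transcription factor, at 9.34 in FAT and 5.63 in DIO. The klf11b difference was 3.71 there, 3.93 in WT and 0.33 in Src(p53-), and gys1 was higher in FAT in all 3 genotypes. At the high end in Src(p53-) stood hmgcra and scd with cyp7a1, the first enzyme of bile acid synthesis, which was at 6.96 in FAT and 2.53 in DIO in that line, at 2.95 and 2.4 in HBx(p53-) and at 3.10 and 4.54 in WT. The lowest in Src(p53-) were nuak1b, a kinase, at 1.45 in FAT and 7.58 in DIO, and cyp3a65, a drug-metabolizing cytochrome P450, at 3.89 and 8.91. Cyp3a65 was also lower in FAT in HBx(p53-), with a difference of -3.33, but higher in FAT in WT, at 8.02 against 5.58.

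No gene had a diet difference that differed between genotypes after adjustment. The lowest adjusted p was 0.203 for HBx(p53-) against WT, 0.194 for Src(p53-) against WT and 0.194 for Src(p53-) against HBx(p53-), with 880, 951 and 736 genes at an unadjusted p under 0.05. Both si and zgc:171534, which were among those with the lowest p, were near the array median on some arrays and bright on others. Serpina1 had its lowest value, 5.41, on WT_DIO, and cthl was at 6.67 in WT_FAT and at 1.63 to 2.14 on the other 5 arrays. For the lists of cholesterol synthesis and ribosome biogenesis, whose medians were largest in WT and smallest in Src(p53-), the difference between genotypes was not tested.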

How the data were processed

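RNA of zebrafish liver was hybridised to ZebGene 1.1 ST arrays, 1 sample an array. Per the labels and methods, the authors background-corrected, quantile-normalised and summarised the probes with RMA in the oligo package, and deposited log2 values for 75212 probe sets (versions not given in the sources used here). The array annotation gave 1 gene symbol to 30358 probe sets, several to 1015 and none to 43839. Where a gene had several probe sets (6365 of 21125 genes), the brightest by its mean over all arrays stood for it. Of these symbols 19501 were matched to RefSeq genes of GRCz12tu, 1 was updated, and 1624 were kept as given.

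FAT and DIO were compared with limma 3.58.1 (R 4.3.3) on 10 arrays, the 4 NOR arrays of the 3 genotypes serving the estimate of spread, with genotype and diet as additive terms (5 residual degrees of freedom). Single genotypes and differences between them came from 11 group means over all 14 arrays (3 residual degrees of freedom). P-values were adjusted by Benjamini-Hochberg over all genes, and an adjusted p under 0.05 was called. The code was tested on simulated data. Figures and counts used Python 3.11.15, pandas 2.3.3, numpy 2.4.6 and matplotlib 3.10.9. Of 928 members of 35 gene lists 842 were measured, and 17 were read under a synonym. The members and lists were chosen with earlier results of these data known. Named were the 10 genes in each direction with the largest moderated t among those with 1 sign in all 3 pairs and a mean difference of at least 1, the 6 members of each list with the largest mean differences in size or in any genotype, genes taken from the study (assayed singly or picked out in its analysis), the 6 highest and 6 lowest genes of each genotype, called genes, and the 5 with the largest moderated t in each difference between genotypes. Many members named outside this rule are marked as chosen after their values were seen. Others, such as hsd17b12b, acat2, fabp10a and ptf1a, also lay outside it, carry no mark and should be read in the same way. Scan dates and plate positions are not given in the sources used here, so no batch could be fitted. The number of arrays limits the precision. Alternatives were another set of arrays, the probe set rule, a filter on dim genes, 2 other normalizations, trend and robust settings, 2 covariates, the methods' rule for changed genes, and leaving out single arrays or a genotype.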

Additional observations from a re-analysis of the deposited data

How the results depend on the processing

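FAT and DIO were compared within genotype in every fit, by a genotype term in the additive fits and by group means in the others. No paired analysis was possible by replicate number because the labels gave the FAT and DIO arrays of these genotypes none. With the 6 FAT and DIO arrays alone and genotype as a block, the lowest adjusted p was 0.752. No gene was called in the comparison over 3 genotypes under any of the 23 alternatives, with the lowest adjusted p between 0.0626 and 0.996. The rule of the methods, over 2-fold at an unadjusted p under 0.05, gave 306 genes (175 higher, 131 lower). In WT alone the count was 3 with trend and robust settings and 0 to 1 when single arrays were left out. It was 0 without any of the 6 arrays of the groups that had 2. For Src(p53-) against HBx(p53-) 1 gene, si, was called among genes with a mean of at least 4 (adjusted p = 0.0428), where fewer genes were tested. The cholesterol synthesis median ranged from 0.33 to 1.55 when arrays or genotypes were left out, that of ribosome biogenesis from -1.06 to -0.52, and that of ER protein processing from 0.34 to 0.75. The exocrine pancreas median was 0.123 without HBx(p53-). The stromal median was -0.168 in the 2 members with a mean of at least 4. Of 1211 values for 53 named genes, 1209 kept their direction. The exception was fasn, which lay between -0.314 without the Src(p53-)_DIO array and 2.056 without HBx(p53-), and at -0.064 without Src(p53-). This count is no independent check, since many of the genes were named for their differences on these same arrays. Alternatives that change only the estimate of spread, such as leaving out a NOR array, return the same mean difference by construction. Arrays shifted to the same median moved the median of all genes to -0.036. With 1 array a group, differences in single genes were limited by the spread between fish.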

Other observations

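Of the 30 measured members of iron and haem handling 3 were higher and 5 (16.7%) lower in all 3 pairs, against 14.8% and 12.6% of all genes. Alas1, the first enzyme of haem synthesis, was at 11.53, 9.50 and 9.05 in FAT and at 7.90, 8.21 and 9.07 in DIO in WT, HBx(p53-) and Src(p53-) (mean difference 1.64 ± 0.58, SE of the fit), with a gap in WT and HBx(p53-) and none in Src(p53-). The haem oxygenase hmox1b, which breaks haem down, was at 3.94, 3.88 and 4.09 in FAT and at 7.06, 4.56 and 6.59 in DIO (-2.10 ± 1.03), and no FAT array reached a DIO array. Neither passed the test after adjustment with limma.

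Of the clock genes clocka differed most evenly, at 5.39, 5.48 and 5.55 in FAT and 4.71, 4.68 and 4.83 in DIO (0.74 ± 0.26), while the list median was 0.15 and the hour of sampling is not given in the sources used here. Bcat2, which starts the breakdown of branched-chain amino acids, was at 6.99, 7.01 and 7.37 in FAT and at 5.11, 5.95 and 6.89 in DIO (1.14 ± 0.33), and the 2 diets did not overlap. Ldha, lactate dehydrogenase, was at 5.65, 5.84 and 5.67 in FAT and at 7.23, 6.12 and 6.95 in DIO (-1.05 ± 0.42), lower in each pair. The proteasome list did not share a direction, with medians of 0.53 in WT, -0.24 in HBx(p53-) and 0.19 in Src(p53-).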
